A study of Schizosaccharomyces pombe with 21 samples.

Results

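The 10 genes described here encode core factors of nuclear RNA surveillance and nonsense-mediated decay in fission yeast (Schizosaccharomyces pombe). They were chosen by name, cid14, air1, mtr4, mtl1, red1, mmi1, rrp6, dis3, pab2 and upf1, from the 6988 genes of the deposited count table. The symbols were joined to the table's systematic identifiers through the authors' own comparison tables, and all 10 names matched. All 10 passed the filter on low counts, with 532 to 7137 counts per library.

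Polyadenylated RNA was sequenced from strain AGP72, for which the labels give mating type h- and no other allele, in 7 groups of 3 libraries labelled as biological replicates. Cells at 0 h were in log phase in YES medium with phosphate and without drug. Starved cells were held in ePMGT medium without phosphate for 2, 4 or 8 h, either without drug or with cycloheximide, an inhibitor of translation elongation, at 100 µg/ml. The labels do not state when cycloheximide was added. Each comparison with 0 h therefore covers 2 changes, of medium and of phosphate supply, and with cycloheximide also the drug. The 6 starved groups were all compared with the same 3 libraries of 0 h, so that those comparisons are not independent of each other. By its title the study concerns long-term phosphate starvation, the choice between quiescence and death, and Maf1, the repressor of RNA polymerase III.

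Nuclear RNA surveillance destroys faulty, noncoding and unwanted transcripts before they leave the nucleus. In the TRAMP complex, the poly(A) polymerase Cid14 adds short tails to such RNAs, the zinc knuckle protein Air1 binds them and the helicase Mtr4 unwinds them for the exosome. The exosome is a ring of subunits without catalytic activity that carries the 3' to 5' exoribonuclease Dis3 and, in the nucleus, Rrp6. In the MTREC complex the Mtr4-like helicase Mtl1 and the scaffold protein Red1 work with Mmi1, a YTH-domain protein that binds meiotic transcripts in growing cells, and with the nuclear poly(A)-binding protein Pab2. Upf1 is the helicase of nonsense-mediated decay, a pathway that depends on translation and removes mRNAs with premature stop codons.

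Values are normalised read counts per 1000000 counts of the TMM-scaled library total (CPM) and are listed by library in the order of replicates 1, 2 and 3. They are relative to all counted RNA, so that a change of 1 gene cannot be told apart from an opposite change of the RNA pool, nor fewer RNA molecules per cell from fewer cells that make them. A gene is called higher or lower at a Benjamini-Hochberg adjusted p below 0.05 over all 6392 genes tested with edgeR's quasi-likelihood test and a change of at least 2-fold. "Rose", "fell", "higher" and "lower" stand for this call, and log2 fold changes carry ± SE. The SE was computed as the size of the log2 fold change over the square root of the F statistic of edgeR's quasi-likelihood test. The edgeR p-values test a difference between groups against the spread between replicate libraries, estimated over all 21 libraries in the same fit. Levels are not compared between genes, since no gene lengths were used. Total counts ranged from 22079413 to 33563867 per library, and in each of 21 replicate pairs the counts differed beyond counting error (chi-square divided by the number of genes, 3.66 to 23.6). Shares of RNA classes differed with the drug at 2 and 4 h: snRNA and snoRNA genes held 0.119 to 0.124% of counts at 2 h with drug and 0.0329 to 0.0341% without, and 0.0647 to 0.0703% and 0.0331 to 0.0344% at 4 h, and overlapped at 8 h (0.0449 to 0.0467% and 0.0453 to 0.0475%). Noncoding RNA genes held 2.22 to 2.39% at 2 h with drug and 1.33 to 1.36% without, tRNA genes 0.00498 to 0.00547% and 0.000359 to 0.000428%, and the part of these shifts in the drug differences was not tested. The coefficient of variation of a member within a group of 3 was at most 9.17%, with a median of 3.09% over 70 gene and group combinations.

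In the RefSeq annotation (assembly ASM294v3, a later one than the ASM294v2 named in the submitters' processing notes), each of the 10 genes overlaps at least 1 gene on the opposite strand. Of 24 genes that overlap them on either strand, 11 are in the count table. The neighbour ilv1, which overlaps 2.34% of air1, had a median of 10478 counts per library beside 819 for air1. For mmi1, dis3, pab2 and upf1 an antisense RNA is annotated over more than 50% of the gene. The only one of these in the table is SPNCRNA.1478, opposite pab2, with a median of 215 counts per library beside 3811 for pab2. The library kit keeps strand, but how strand was treated in counting was not stated, and whether a member's counts include antisense reads was not tested.

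Of the 3 TRAMP genes, all were lower than at 0 h after 4 h and 8 h of starvation. CPM of cid14 (SPAC12G12.13c) at 0 h were 159.9, 165.6 and 159.3. They were 89.1, 94.7 and 95.6 at 2 h, 59.7, 59.4 and 61.7 at 4 h and 55.7, 54.9 and 54.2 at 8 h. Every group stood below the one before it with no overlap between libraries, and the log2 fold change against 0 h went from -0.80 ± 0.03 at 2 h, under the fold threshold, to -1.42 ± 0.03 at 4 h (edgeR adjusted p = 3.4e-20) and -1.56 ± 0.03 at 8 h (edgeR adjusted p = 4.3e-21). With cycloheximide cid14 had 227.8, 224.0 and 213.8 CPM at 2 h, 230.0, 233.7 and 237.9 at 4 h and 168.9, 170.2 and 169.5 at 8 h. These 9 libraries all lay above every library of 0 h, with log2 fold changes against 0 h, all under 2-fold, of 0.46 ± 0.03, 0.53 ± 0.03 and 0.070 ± 0.03. Set against starved cells without drug at the same time, cid14 rose by 1.25 ± 0.03 at 2 h, 1.95 ± 0.03 at 4 h and 1.63 ± 0.03 at 8 h on the log2 scale, with edgeR adjusted p of 2.0e-19, 8.1e-23 and 2.3e-21. It was the 1 member called higher with drug at all 3 times.

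The helicase gene mtr4 (SPAC6F12.16c) had 214.9, 241.6 and 233.1 CPM at 0 h and 138.2, 150.5 and 151.2 at 2 h. It then stood at 89.5, 90.5 and 91.0 at 4 h and 99.2, 87.5 and 90.9 at 8 h. All 6 libraries of the later times lay below those of 2 h, which lay below those of 0 h, while the libraries of 4 h and 8 h overlapped. The log2 fold change was -1.35 ± 0.05 at 4 h (edgeR adjusted p = 1.3e-16) and -1.31 ± 0.05 at 8 h (edgeR adjusted p = 1.6e-16). Libraries with cycloheximide held 146.8, 134.4 and 134.0 CPM at 2 h, 201.4, 207.8 and 189.1 at 4 h and 153.5, 157.3 and 155.6 at 8 h. They overlapped the libraries without drug at 2 h (-0.083 ± 0.05) and lay above them at 4 and 8 h. Only the difference at 4 h was called (1.14 ± 0.05, edgeR adjusted p = 1.6e-15); at 8 h it was 0.75 ± 0.05.

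The RNA-binding subunit gene air1 (SPBP35G2.08c) took another course with the drug. Its CPM were 56.0, 59.9 and 58.1 at 0 h, 35.2, 35.6 and 37.9 at 2 h, 27.0, 27.0 and 28.5 at 4 h and 29.4, 27.0 and 28.8 at 8 h without drug. With cycloheximide they were 26.1, 23.9 and 23.9 at 2 h, 27.5, 29.1 and 28.3 at 4 h and 24.2, 24.1 and 24.8 at 8 h. All 18 starved libraries lay below the 3 of 0 h, and those with drug lay below their counterparts without it at 2 and 8 h and overlapped them at 4 h. Against 0 h air1 fell at 4 h (-1.08 ± 0.05, edgeR adjusted p = 3.6e-15) and 8 h (-1.03 ± 0.05, edgeR adjusted p = 6.5e-15) without drug. It also fell at 2 h (-1.23 ± 0.05), 4 h (-1.03 ± 0.05) and 8 h (-1.25 ± 0.05) with drug, with edgeR adjusted p of 4.7e-16, 1.1e-14 and 4.3e-16. Between drug and no drug its log2 fold changes were -0.55 ± 0.05, 0.042 ± 0.05 and -0.22 ± 0.05 at 2, 4 and 8 h, none of them called. Several air1 calls lie close to 2-fold: with scaling by library size alone the 4 h and 8 h values without drug were -0.87 and -0.83, and the 4 h value with drug was -0.93, or -0.97 with RLE factors or DESeq2. With only the compared groups in the fit, the 8 h value without drug was -0.98 and the 4 h value with drug was -0.99. Without replicate 2 of the 8 h libraries the 8 h value was -0.99.

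**Figure D1:**
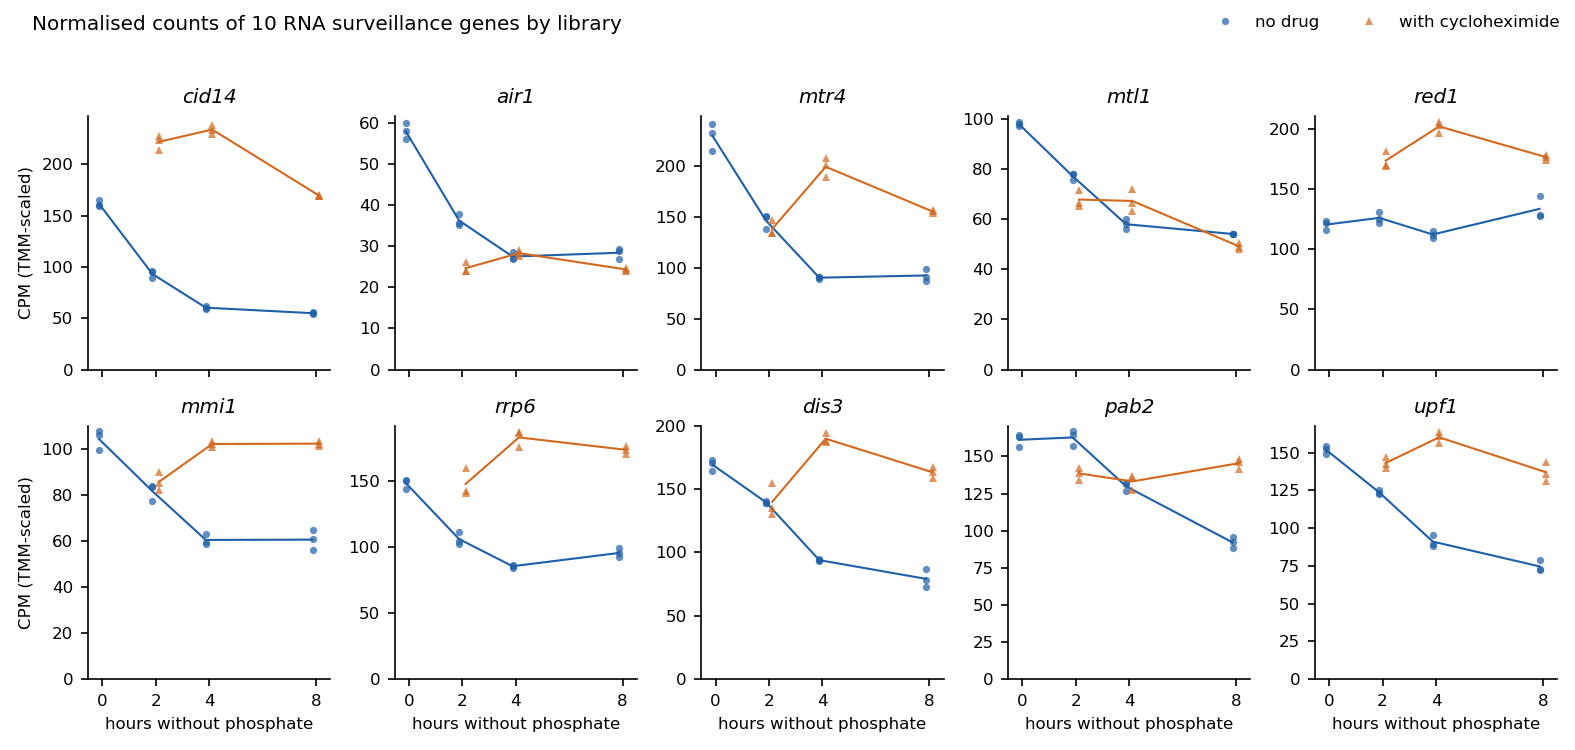
Normalised counts (CPM, y axis from 0, own scale per gene) of the 10 genes against hours without phosphate. Blue circles are libraries without drug, including 0 h, and orange triangles are libraries with cycloheximide; lines join the means of 3 libraries. The orange cid14 libraries, from 168.9 to 237.9 CPM, all lie above the blue ones, while those of air1 reach 29.1 CPM at most.

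The exosome nuclease genes rrp6 and dis3 were both higher with cycloheximide than without it at 4 h, and dis3 was lower than at 0 h after 8 h without drug. For dis3 (SPBC26H8.10), which encodes the nuclease at the base of the exosome ring, CPM were 164.0, 170.6 and 173.1 at 0 h, 138.9, 139.3 and 140.7 at 2 h, 93.4, 93.9 and 94.4 at 4 h and 86.7, 78.1 and 72.6 at 8 h. The 4 groups did not overlap, and the log2 fold changes against 0 h were -0.28 ± 0.05 and -0.85 ± 0.05 at 2 and 4 h and -1.10 ± 0.05 at 8 h, the last called (edgeR adjusted p = 1.3e-14). With drug dis3 stood at 154.6, 134.7 and 130.7 CPM at 2 h, 187.8, 194.1 and 187.5 at 4 h and 158.8, 163.4 and 167.4 at 8 h. At 2 h these libraries lay on both sides of those without drug (0.006 ± 0.05), and at 4 h (1.02 ± 0.05, edgeR adjusted p = 3.2e-14) and 8 h (1.04 ± 0.05, edgeR adjusted p = 2.6e-14) they lay above them. The drug effect at 8 h exceeded that at 2 h by 1.04 ± 0.08 on the log2 scale in the interaction of drug and time (edgeR adjusted p = 2.5e-11), and dis3 was the only member past 2-fold there. These dis3 calls lie at the threshold: the interaction was 0.98 without replicate 3 of the 8 h libraries and 0.99 without replicate 3 of the 2 h cycloheximide libraries. The difference at 8 h was 0.99 without replicate 3 of the 8 h libraries, and that at 4 h was 0.92 with library size alone and just under 1 (0.998) without replicate 2 of the 4 h cycloheximide libraries.

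The nuclear exonuclease gene rrp6 (SPAC1F3.01) had 144.4, 151.2 and 150.3 CPM at 0 h and 102.3, 104.7 and 111.3 at 2 h. It had 86.2, 86.0 and 84.4 at 4 h and 99.2, 95.5 and 92.2 at 8 h without drug. The 4 h libraries were the lowest of the course and those of 8 h lay between 4 h and 2 h, with log2 fold changes against 0 h of -0.49 ± 0.04, -0.80 ± 0.04 and -0.64 ± 0.04, none called. With cycloheximide the values were 160.1, 141.0 and 142.5 at 2 h, 175.9, 186.7 and 187.0 at 4 h and 170.5, 173.8 and 177.0 at 8 h. All 9 of these libraries lay above all 9 without drug, and the difference was 0.48 ± 0.04 at 2 h, 1.10 ± 0.04 at 4 h (called, edgeR adjusted p = 2.4e-16) and 0.86 ± 0.04 at 8 h.

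The 4 genes of MTREC and its partners, mtl1, red1, mmi1 and pab2, stayed under the fold threshold in each comparison made with all libraries. The MTREC helicase gene mtl1 (SPAC17H9.02) had 96.9, 97.8 and 98.6 CPM at 0 h, 78.0, 77.9 and 75.6 at 2 h, 55.9, 59.9 and 58.1 at 4 h and 54.2, 53.9 and 54.0 at 8 h. With drug it had 65.3, 66.5 and 71.6 at 2 h, 66.5, 63.2 and 72.0 at 4 h and 48.2, 48.7 and 50.4 at 8 h. All 18 starved libraries lay below 0 h, and the 8 h cycloheximide libraries were the lowest, at a log2 fold change of -0.99 ± 0.04 against 0 h that was just short of 2-fold. Without 0 h replicate 1 or without 8 h cycloheximide replicate 3 that value was -1.001 or -1.013 and was called. The drug libraries lay below those without drug at 2 and 8 h and above them at 4 h. Between drug and no drug mtl1 differed by -0.19 ± 0.04, 0.21 ± 0.04 and -0.14 ± 0.04 at 2, 4 and 8 h.

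The scaffold gene red1 (SPAC1006.03c) had log2 fold changes of at most 0.15 in size from 0 h without drug. Its CPM were 116.2, 123.1 and 122.1 at 0 h, 125.5, 122.0 and 130.6 at 2 h, 109.4, 112.0 and 115.4 at 4 h and 144.4, 128.6 and 127.7 at 8 h. With cycloheximide they were 181.9, 169.2 and 170.1 at 2 h, 205.9, 203.4 and 196.9 at 4 h and 176.9, 174.4 and 178.3 at 8 h. Without drug, the 2 h libraries overlapped those of 0 h, those of 4 h lay below and those of 8 h above. The 9 drug libraries lay above all 12 without drug, at 0.46 ± 0.04, 0.85 ± 0.04 and 0.40 ± 0.04 against no drug on the log2 scale, and the log2 fold changes of starvation alone were 0.066 ± 0.04, -0.10 ± 0.04 (0.10 with library size alone) and 0.15 ± 0.04. Library size alone is a scaling under which the median log2 fold change of all genes was 0.20 at 4 h and 0.19 at 8 h, against values near 0 with TMM.

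For mmi1 (SPCC736.12c), the YTH-domain gene, CPM were 105.7, 107.4 and 99.3 at 0 h, 77.4, 83.2 and 83.9 at 2 h, 58.5, 59.7 and 62.9 at 4 h and 56.1, 64.5 and 60.9 at 8 h. With drug they were 84.8, 82.0 and 89.7 at 2 h, 103.2, 100.9 and 101.9 at 4 h and 103.1, 102.0 and 101.2 at 8 h. The drug libraries overlapped those without drug at 2 h and lay above them at 4 and 8 h, where they overlapped the 0 h libraries. The log2 difference from no drug was 0.068 ± 0.05, 0.76 ± 0.05 and 0.75 ± 0.05, and the log2 fold changes of starvation alone were -0.35 ± 0.05, -0.78 ± 0.05 and -0.78 ± 0.05.

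The poly(A)-binding protein gene pab2 (SPBC16E9.12c) stood level with 0 h at 2 h without drug. It had 164.1, 163.2 and 156.3 CPM at 0 h and 166.9, 157.2 and 164.4 at 2 h, which overlapped, then 126.7, 131.2 and 131.8 at 4 h and 88.3, 92.1 and 95.5 at 8 h. With cycloheximide it had 134.4, 138.9 and 142.4 at 2 h, 135.2, 127.5 and 136.9 at 4 h and 146.6, 141.7 and 148.2 at 8 h, below 0 h in all 9 libraries. Drug libraries lay below those without drug at 2 h (-0.23 ± 0.04), overlapped them at 4 h (0.035 ± 0.04) and lay above them at 8 h (0.66 ± 0.04). Against 0 h the log2 fold change without drug was 0.015 ± 0.04, -0.31 ± 0.04 and -0.81 ± 0.04 at 2, 4 and 8 h. With drug it was -0.22 ± 0.04, -0.28 ± 0.04 and -0.15 ± 0.04, the last of which turned to 0.08 with library size alone.

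The nonsense-mediated decay helicase gene upf1 (SPAC16C9.06c) was lower than at 0 h after 8 h of starvation. Its CPM were 149.0, 154.2 and 152.8 at 0 h, 122.4, 123.4 and 125.0 at 2 h, 89.6, 88.0 and 95.7 at 4 h and 79.0, 72.3 and 72.7 at 8 h. The 4 groups did not overlap, and the log2 fold change was -0.30 ± 0.04, -0.74 ± 0.04 and -1.03 ± 0.04 at 2, 4 and 8 h, the last called (edgeR adjusted p = 1.8e-16) and close to 2-fold (-0.82 with library size alone, -0.98 with only the compared groups). With drug upf1 had 147.1, 139.9 and 142.5 CPM at 2 h, 156.3, 163.4 and 160.9 at 4 h and 131.4, 136.2 and 143.6 at 8 h, above the libraries without drug at each time. The log2 difference from no drug was 0.21 ± 0.04, 0.81 ± 0.04 and 0.88 ± 0.04, under 2-fold throughout. Against 0 h the drug groups stood at -0.086 ± 0.04, 0.076 ± 0.04 and -0.15 ± 0.04, of which the 2 h and 8 h values turned to 0.02 and 0.08 with library size alone.

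Counted over the 10 genes, starvation without drug gave 0 called at 2 h, where 5.76% of all tested genes were called either way. By edgeR's quasi-likelihood test 8 of the 10 had an unadjusted p below 0.05 at 2 h, beside 68% of all genes, and DESeq2 also called 0. At 4 h 3 genes were lower (cid14, air1 and mtr4), beside 13.9% of all genes, and at 8 h 5 were lower (these and dis3 and upf1), beside 15.6%. No member was called higher in these comparisons, beside 3.94%, 14.2% and 19% of all genes at 2, 4 and 8 h. At an adjusted p below 0.05 without the fold threshold, 8, 10 and 9 members lay below 0 h at 2, 4 and 8 h (at 4 h red1 and pab2 not with library size alone), beside 34.6%, 42.1% and 43.3% of all genes, and red1 lay above it at 8 h. The median log2 fold change of the 10 was -0.35, -0.79 and -0.94 at 2, 4 and 8 h, and that of all tested genes was -0.02, -0.004 and -0.01. Over all genes 252, 906 and 1212 were higher and 116, 889 and 997 lower at 2, 4 and 8 h, and with library size alone 294, 1154 and 1458 were higher and 76, 670 and 782 lower.

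With cycloheximide, air1 was the 1 member called against 0 h at each time, and it was lower. The shares of all genes were 14.5%, 14.8% and 14.1% called lower at 2, 4 and 8 h, and 31.5%, 29.6% and 26.8% called either way. Of all genes 808 were higher at 8 h and 903 lower; scaling by library size alone made these counts 1100 and 635. The highest log2 fold changes of members against 0 h were those of red1, at 0.53 ± 0.04, 0.75 ± 0.04 and 0.55 ± 0.04. Against starved cells without drug, 1, 4 and 2 members were higher at 2, 4 and 8 h, beside 15.8%, 19.9% and 17.1% of all genes. They were cid14 alone at 2 h, cid14, mtr4, rrp6 and dis3 at 4 h, and cid14 and dis3 at 8 h. No member was called lower, beside 13.5%, 20.9% and 20.8% of all genes. By adjusted p alone, 4, 8 and 8 members lay above the cells without drug at 2, 4 and 8 h, beside 41.5%, 43.7% and 43.2% of all genes, and 3, 0 and 2 lay below. Either way, 85.7%, 89.5% and 89.2% of all genes passed this rule. The median log2 difference of the 10 was 0.04, 0.83 and 0.75 at the 3 times, and that of all genes was -0.04, -0.04 and -0.03.

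**Figure D2:**
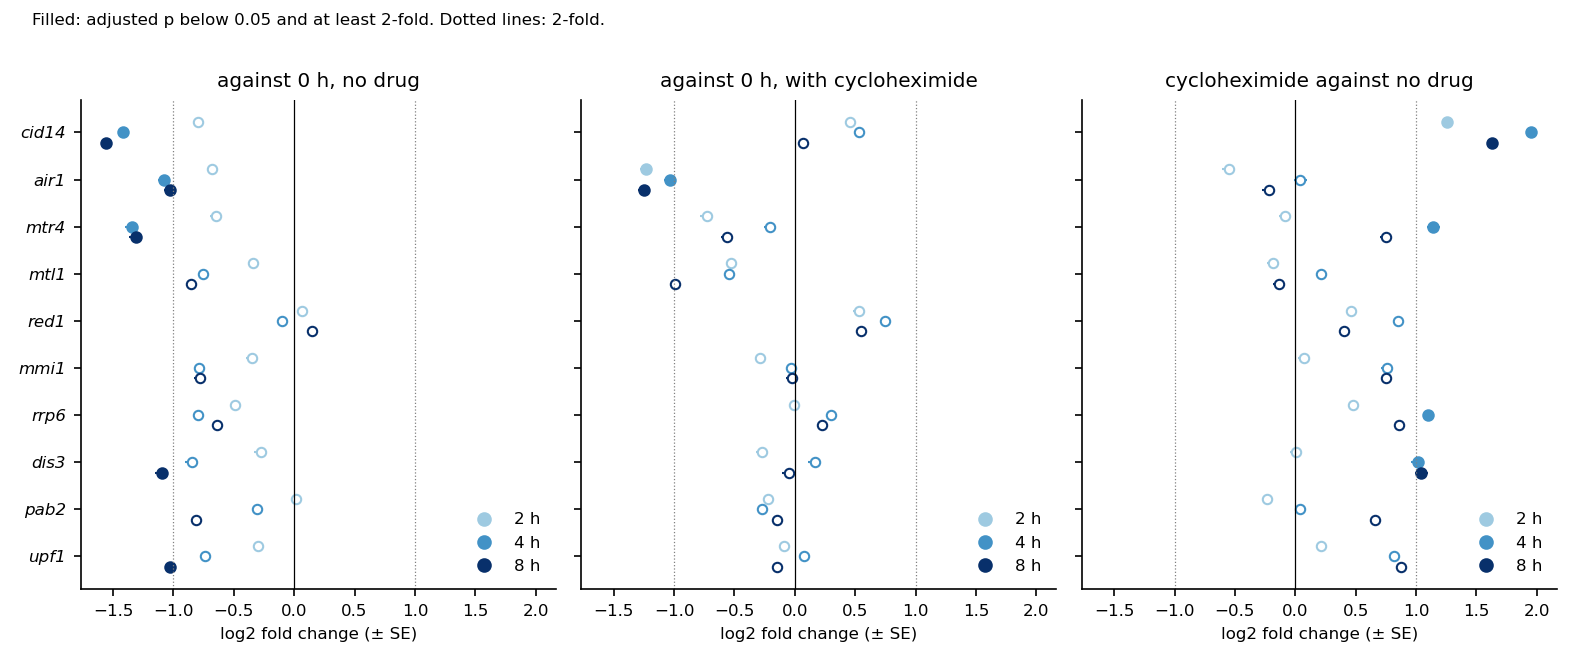
Log2 fold changes (x axis, ± SE, mostly within the symbols) of the 10 genes after 2, 4 and 8 h: starved cells without drug against 0 h, starved cells with cycloheximide against 0 h, and cycloheximide against no drug. Filled circles passed both thresholds and dotted lines mark 2-fold. In the left plot cid14 reaches -1.56; in the middle plot only air1 is filled; in the right plot cid14 reaches 1.95. Among values with an adjusted p below 0.05, the sign turned with library size alone for red1 at 4 h without drug. With drug against 0 h it turned for upf1 at 2 and 8 h and pab2 at 8 h.

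Between neighbouring times no member was called by edgeR's quasi-likelihood test, beside 14.2% of all genes called either way from 2 to 4 h and 6.56% from 4 to 8 h without drug, and 5.96% and 7.88% with drug. The members with an unadjusted p below 0.05 numbered 10, 7, 8 and 8 in these 4 steps, beside 77.2%, 72.4%, 67.7% and 69.9% of all genes, and DESeq2 called 0 in each. From 4 to 8 h with drug 192 of all genes were higher and 312 lower, and scaling by library size alone gave 266 and 248. From 2 to 4 h without drug the log2 changes ran from -0.70 ± 0.05 (mtr4) to -0.17 ± 0.04 (red1), all below 0. Over the same interval with drug they ran from -0.057 ± 0.04 (pab2) to 0.53 ± 0.05 (mtr4). From 4 to 8 h without drug pab2 had the lowest value, -0.50 ± 0.04, and with drug cid14 and mtl1 had the lowest, -0.46 ± 0.03 and -0.45 ± 0.04. In the interaction of drug and time from 2 to 8 h, 1 of the 10 was called, dis3, beside 12.6% of all genes called higher and 32% called either way. By edgeR 8 of the 10 had an adjusted p below 0.05 there at any fold, close to the 81.8% of all genes. The other values ranged from -0.061 ± 0.06 for red1 and 0.050 ± 0.06 for mtl1 to 0.83 ± 0.07 for mtr4 and 0.89 ± 0.05 for pab2.

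Ratios between a pair of members within each library do not depend on the scaling between libraries. The log2 ratio of air1 to cid14, the RNA-binding and polymerase subunits of TRAMP, was -1.51, -1.47 and -1.45 at 0 h. It was -1.34, -1.41 and -1.33 at 2 h, -1.15, -1.14 and -1.11 at 4 h and -0.92, -1.02 and -0.91 at 8 h without drug. With drug it was -3.12, -3.23 and -3.16 at 2 h, -3.06, -3.003 and -3.07 at 4 h and -2.80, -2.82 and -2.77 at 8 h. All 9 drug libraries lay far below all 12 others, with a mean difference between drug and no drug of -1.86 (two-sided exact permutation test of drug labels within times, p = 0.00025, the smallest it can give; 0.00075 after adjustment over 3 ratios). The difference was -1.81, -1.91 and -1.85 at 2, 4 and 8 h.

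The ratio of the helicase genes mtl1 to mtr4 was -1.15, -1.30 and -1.24 on the log2 scale at 0 h. Without drug it was -0.83, -0.95 and -0.9998 at 2 h, -0.68, -0.60 and -0.65 at 4 h and -0.87, -0.70 and -0.75 at 8 h, above all 0 h libraries. With drug it was -1.17, -1.01 and -0.90 at 2 h, -1.60, -1.72 and -1.39 at 4 h and -1.67, -1.69 and -1.63 at 8 h. The groups overlapped at 2 h and separated at 4 and 8 h, with differences of -0.10, -0.93 and -0.89 and a mean of -0.64 (exact permutation p = 0.001, adjusted 0.0015).

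For the nucleases, the log2 ratio of rrp6 to dis3 was -0.18, -0.17 and -0.20 at 0 h. Without drug it was -0.44, -0.41 and -0.34 at 2 h, -0.12, -0.13 and -0.16 at 4 h and 0.20, 0.29 and 0.34 at 8 h. With drug it was 0.05, 0.07 and 0.13 at 2 h, -0.09, -0.06 and -0.004 at 4 h and 0.10, 0.09 and 0.08 at 8 h. Drug libraries lay above those without drug at 2 and 4 h and below them at 8 h, by 0.48, 0.08 and -0.19, and the mean difference of 0.12 did not pass the exact permutation test (p = 0.104). Without the 2 h libraries it was -0.05 (exact permutation p = 0.335). Without those of 8 h, the time with the opposite sign, it was 0.28 (exact permutation p = 0.005, the smallest it can give there, adjusted 0.0075).

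**Figure D3:**
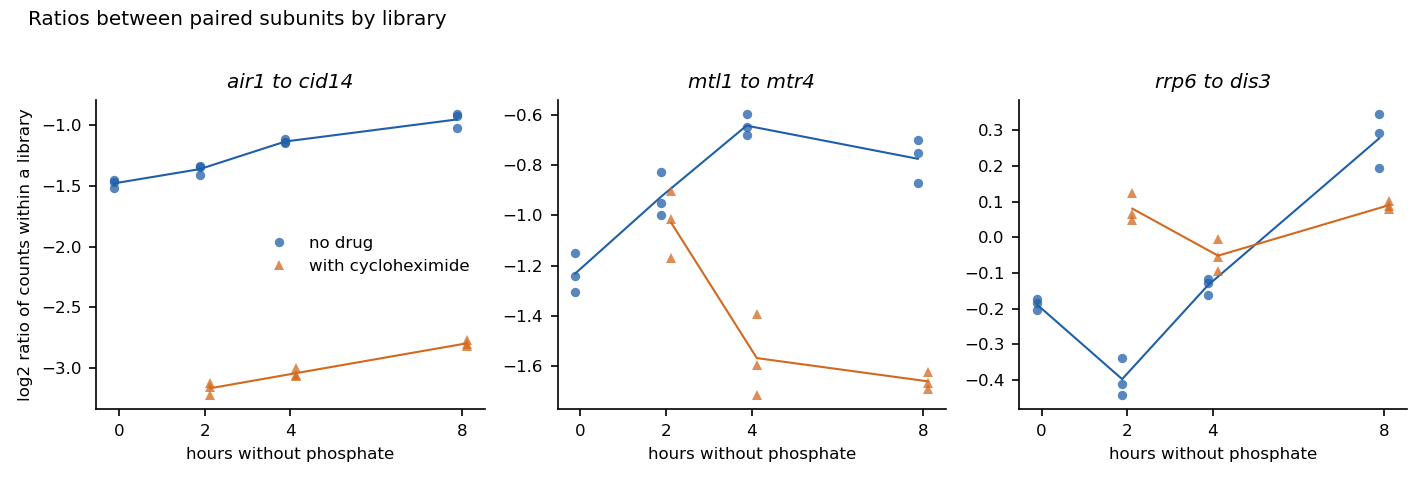
Log2 ratio of counts within a library (y axis, own scale) for air1 to cid14, mtl1 to mtr4 and rrp6 to dis3 against hours without phosphate. Blue circles are libraries without drug, orange triangles libraries with cycloheximide, and lines join means of 3. The air1 to cid14 ratio lies between -3.23 and -2.77 with drug and between -1.51 and -0.91 without it.

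The order of the 7 groups differed between members. For cid14 all neighbours in the order were separate, from 8 h (mean 54.9 CPM) over 4 h, 2 h, 0 h and 8 h with drug to 2 h and 4 h with drug (233.9 CPM), a 4.26-fold range. For air1, 0 h was highest (58.0 CPM) and 2 h without drug next, and the 3 groups of 4 h without drug, 4 h with drug and 8 h without drug overlapped each other, as did 8 h and 2 h with drug. For mtr4 and mmi1 0 h was also highest, but the mmi1 libraries of 0 h overlapped those of 8 h with drug. The highest group was 4 h with drug for red1, rrp6, dis3 and upf1, overlapping 8 h with drug only for rrp6, and the lowest was 8 h without drug for cid14, dis3, pab2 and upf1. The lowest group was 4 h without drug for mtr4, red1, mmi1 and rrp6, overlapping 8 h for mtr4 and mmi1, and 8 h with drug for air1. For mtl1 the highest and lowest groups were 0 h and 8 h with drug. For pab2 the 0 h and 2 h libraries overlapped at the top, and the 4 h libraries with and without drug and the 2 and 8 h drug libraries overlapped as a chain in the middle. From the highest to the lowest group mean the range was 1.73-fold for mmi1, 1.77-fold for pab2, 1.80-fold for red1, 1.99-fold for mtl1, 2.14-fold for rrp6, 2.15-fold for upf1, 2.38-fold for air1, 2.40-fold for dis3 and 2.54-fold for mtr4.

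As a description over the 7 group means, which share libraries, scaling and the 0 h group, Pearson's r of log2 CPM between members ran from -0.53 for air1 with red1 to 0.98 for dis3 with upf1, with a median of 0.65 over 45 pairs. It exceeded 0.9 in 9 pairs, all among cid14, mtr4, mmi1, rrp6, dis3 and upf1, such as mmi1 with dis3 (0.97) and cid14 with rrp6 (0.94). For air1 it was highest with mtl1 (0.86) and 0.01 with cid14. Among 3009 protein-coding genes with a mean of at least 10 CPM and a log2 range of at least 1 over the groups, the pair most like cid14 were cat1, an amino acid transporter gene (r = 0.9995), and sua5, a tRNA modification gene (0.998). For upf1 they were the exosome subunit gene rrp4 (0.998) and tif308, a subunit gene of translation initiation factor eIF3 (0.997). For dis3 they were tif307, of the same factor (0.995), and the release factor gene sup35 (0.994), and for rrp6 rrp1402 (0.997), of ribosome biogenesis. Those most like mtr4 were cpd1 (0.989) and tif471 (0.985), and most like air1 trm401 (0.990) and hot15 (0.988); cpd1 and trm401 are tRNA methyltransferase genes. For mtl1 they were trm9 (0.985) and eca39 (0.969), for red1 win1 (0.985) and mrs2 (0.985), for mmi1 crb3 (0.989) and rpr2 (0.989), and for pab2 SPBC582.08 (0.982) and spc1 (0.971). Each coefficient rests on 7 points and was picked as the highest among the genes compared.

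The other genes of each pathway were read from lists of known factors. Calls in these lists stand beside the shares of all genes at 2, 4 and 8 h. Without drug against 0 h, 1.81%, 13.9% and 15.6% of all genes were called lower and 3.94%, 14.2% and 19% higher. For cycloheximide against no drug, 15.8%, 19.9% and 17.1% were called higher and 13.5%, 20.9% and 20.8% lower. The median log2 fold change of all genes lay near 0 in each of these comparisons. Among 13 exosome genes, rrp6 and dis3 included, csl4 and mpp6 were lower at 4 h, and csl4, dis3, rrp4 and rrp40 were lower at 8 h. All 13 had log2 fold changes below 0 at each of the 3 times, with medians of -0.28, -0.80 and -0.64, beside -0.02, -0.004 and -0.01 for all genes. With library size alone 12, 12 and 11 of the 13 lay below 0, where the median log2 fold change of all genes was 0.07, 0.20 and 0.19. With that scaling mpp6 and dis3 were under 2-fold. CPM of csl4, a cap subunit gene of the ring, averaged 136.9 at 0 h and 55.1 at 8 h (-1.31 ± 0.04, edgeR adjusted p = 2.3e-18). Those of rrp4, another cap subunit gene, averaged 87.8 and 35.1 (-1.32 ± 0.04, edgeR adjusted p = 9.3e-18). Higher with cycloheximide were rrp6, dis3, rrp4, rrp40 and cti1 at 4 h and dis3, rrp4, rrp40 and cti1 at 8 h, while mtr3 was lower at 2 h (-1.13 ± 0.05). The largest of these differences was that of the cap subunit gene rrp40, at 24.1 CPM without and 100.2 CPM with drug at 8 h (2.06 ± 0.05, edgeR adjusted p = 1.2e-20). It was followed by cti1, which encodes a nuclear cofactor of Rrp6, at 4 h (1.59 ± 0.05). The other 8 of the 13 were not called with drug at 4 h, with log2 differences from -0.61 ± 0.05 for mtr3 to 0.96 ± 0.09 for mpp6.

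Of 9 genes of nonsense-mediated decay, termination and ribosome rescue, the release factor genes sup35 and erf1 were lower at 4 h, and these with ebs1 and upf1 were lower at 8 h. With library size alone sup35 and erf1 at 4 h and upf1 at 8 h were under 2-fold. The other core decay genes upf2 and upf3 were not called: at 8 h upf2 had -0.28 ± 0.04 and upf3 -0.068 ± 0.05, beside -1.03 ± 0.04 for upf1. Mean CPM of sup35 (eRF3) were 780.4 at 0 h and 269.9 at 8 h (-1.53 ± 0.05, edgeR adjusted p = 1.8e-18) and those of erf1 were 439.1 and 169.3 (-1.38 ± 0.04, edgeR adjusted p = 2.3e-18). The median log2 fold change of the 9 was -0.20 at 4 h and -0.65 at 8 h. With cycloheximide dom34, a ribosome rescue gene, was higher at 2 h (1.01 ± 0.05), dom34, ebs1, erf1 and sup35 at 4 h, and ebs1, erf1 and sup35 at 8 h. The largest of these was ebs1 at 8 h, at 100.2 CPM without and 309.1 CPM with drug (1.62 ± 0.04, edgeR adjusted p = 8.0e-21). At 8 h the difference was 0.88 ± 0.04 for upf1, 0.35 ± 0.03 for upf2 and 0.22 ± 0.05 for upf3.

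**Figure D4:**
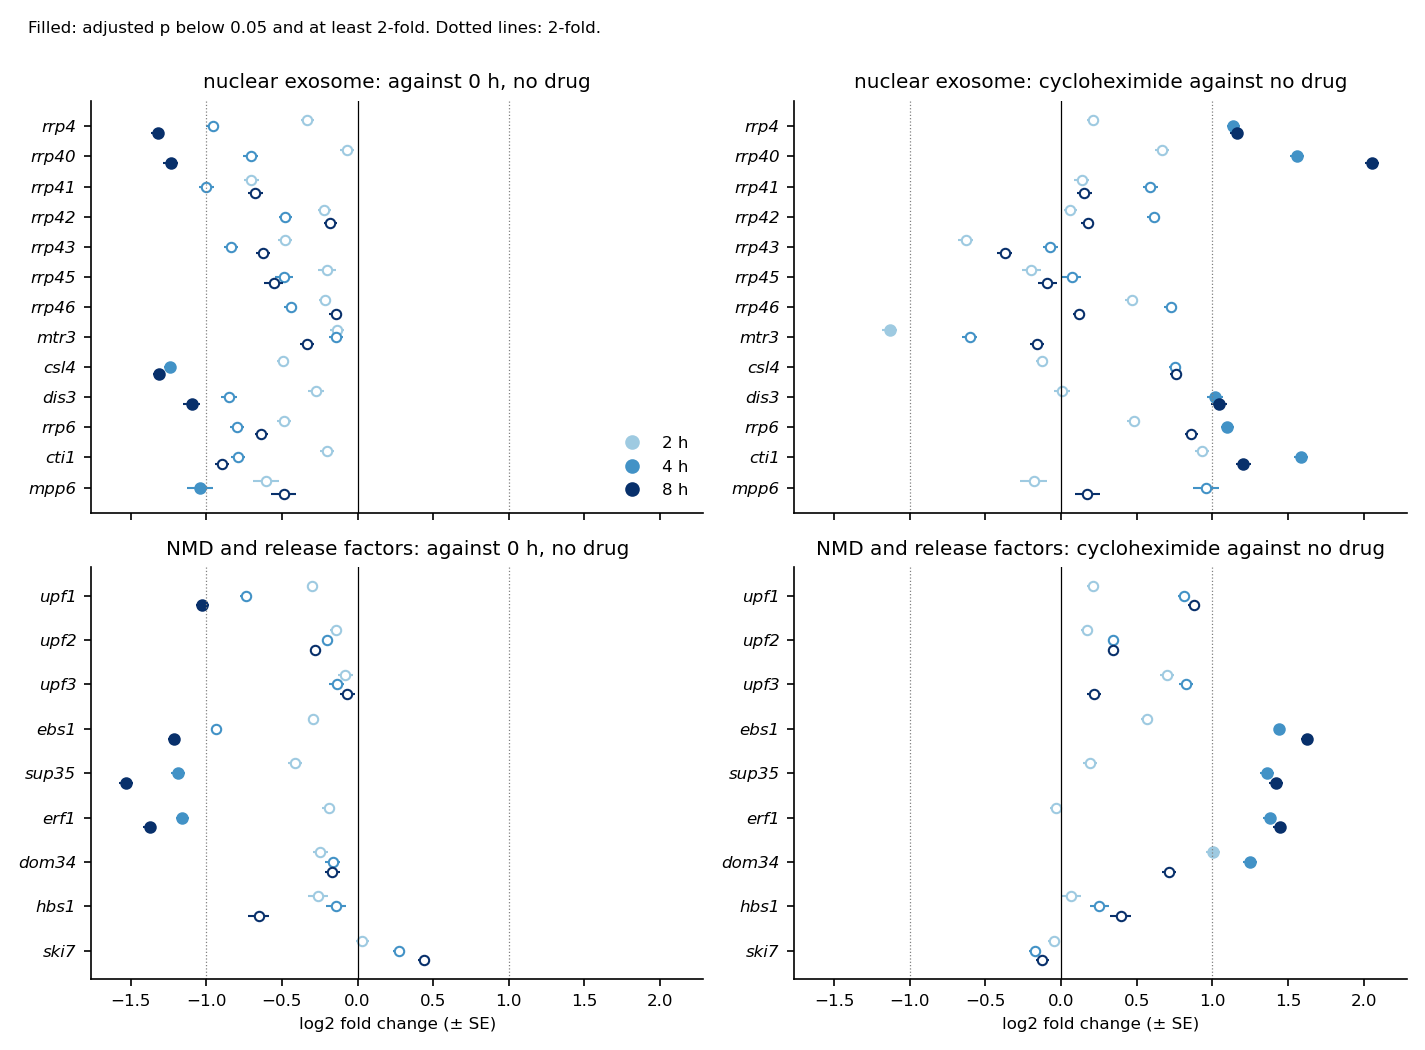
Log2 fold changes (x axis, ± SE) of 13 exosome genes (top) and 9 genes of nonsense-mediated decay and release (bottom), for starved cells without drug against 0 h (left) and for cycloheximide against no drug (right). Shades mark 2, 4 and 8 h, filled circles passed both thresholds and dotted lines mark 2-fold. On the right rrp40 reaches 2.06 and ebs1 1.62, while mtr3 stands at -1.13 at 2 h.

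In the list of TRAMP and 6 other nucleotidyltransferase genes, the 3 TRAMP genes were the only ones lower during starvation without drug, with air1 under 2-fold with library size alone. The uridylyltransferase gene cid11 rose from 1.68 CPM at 0 h to 8.42 at 8 h (2.30 ± 0.15, edgeR adjusted p = 2.2e-12), and cid13, a poly(A) polymerase gene, rose by 1.07 ± 0.05 at 8 h. With cycloheximide cid11 was lower at each time and cid13 at 4 and 8 h. At 8 h they were lower, with log2 differences of -3.98 ± 0.18 and -1.16 ± 0.05, while cid14 was higher. For cid11 the mean with drug at 8 h was 0.52 CPM, beside 8.42 without it, so that its difference rests on few counts. Among 14 genes of MTREC and Mmi1 partners, the 1 call in starvation without drug was red5, a zinc finger gene of the complex, higher at 8 h (97.8 and 283.9 CPM, 1.54 ± 0.03, edgeR adjusted p = 3.2e-22). With drug red5 was lower at 8 h (-1.31 ± 0.03), and erh1, which encodes the binding partner of Mmi1, was lower at 2 h (-1.76 ± 0.07) and 4 h (-1.11 ± 0.06). The log2 differences of mmi1 at these 2 times were 0.068 ± 0.05 and 0.76 ± 0.05. At 8 h erh1 was just short of 2-fold (-0.996 ± 0.06) and not called. The median log2 fold change of the 14 was -0.30 at 8 h of starvation and 0.21 with drug at 8 h.

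The 28 genes of cytoplasmic mRNA decay had median log2 fold changes of -0.13 at 4 h and -0.27 at 8 h of starvation without drug. With cycloheximide dis32, which encodes the Dis3-like cytoplasmic nuclease Dis3L2, was higher at 2, 4 and 8 h (1.55 ± 0.06, 1.17 ± 0.06 and 1.34 ± 0.06) and caf1 at 8 h, while lsm6 was lower at each time, lsm1 at 2 and 4 h and lsm2 at 4 h. The nuclear 5' to 3' exonuclease gene dhp1 was higher with drug at each time (1.44 ± 0.03 at 4 h), and its partner gene din1 was lower at 2 h (-1.14 ± 0.05). Of 12 RNA interference and heterochromatin genes, arb2 was higher at 8 h of starvation (1.44 ± 0.06). With drug chp1 was higher at each time and arb1 and arb2 were lower, with log2 differences of -4.08 ± 0.08 for arb2 and -3.54 ± 0.06 for arb1 at 8 h, and stc1 was lower at 4 and 8 h.

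RNAs reported as targets of Mmi1 went different ways from each other. Of 11 listed, rec8 and sme2 were higher at 2 h, rec8, sme2, num1 and spo5 at 4 h, and these with rec10 and crs1 at 8 h, while SPNCRNA.1343, a noncoding RNA made upstream of the tgp1 gene, was lower at 4 and 8 h. Mean CPM of num1 (also known as mcp5, a meiotic dynein anchor) were 6.73 at 0 h and 38.9 at 8 h (2.53 ± 0.08, edgeR adjusted p = 1.9e-18), those of rec8, the meiotic cohesin, 3.37 and 11.1 (1.71 ± 0.16), beside 104.1 and 60.5 CPM for mmi1. Both listed antagonists of Mmi1, mei2 and the meiotic noncoding RNA sme2, were higher at 2, 4 and 8 h, with 90.2 and 529.6 CPM of mei2 at 0 and 8 h (2.55 ± 0.07). With cycloheximide nc-pho1 and SPNCRNA.1343 were higher at each time, SPNCRNA.1343 from 6.53 to 169.5 CPM at 8 h (4.69 ± 0.08, edgeR adjusted p = 5.5e-23), and mei4 was higher at 2 h (2.33 ± 0.11) and 4 h. At 2 h num1 (1.16 ± 0.08) and rec10 (1.08 ± 0.05) were also higher with drug. At 8 h num1 was lower with drug (-1.64 ± 0.07), as were spo5, sme2 and crs1, and rec8 was lower at each time (-1.74 ± 0.16 at 8 h). The antagonist gene mei2 was higher with drug at 4 h (2.08 ± 0.07). Summed CPM of 5 M-cell mating genes, the cell type of the labelled h- mating type, were 120.1 to 132.1 at 0 h, and 181.7 to 219.4, 353.5 to 374.5 and 886.3 to 1377.4 at 2, 4 and 8 h without drug. With drug they were 51.1 to 52.3, 110.6 to 113.0 and 396.6 to 499.0. The genes in these sums went different ways. At 2 h with drug against no drug mfm3 was higher (2.79 ± 0.16), while mfm1, mfm2, mam1 and mam2 were lower. Among the P-cell genes map2 was then higher (2.57 ± 0.11) and map1 lower (-1.18 ± 0.08), while map3 was not called (-0.67 ± 0.09). Summed CPM of the 3 P-cell genes were 32.9 to 37.9 at 0 h and between 49.3 and 93.9 in the starved groups. None of the 8 mating genes had a group mean of 0, and their part in the values of the other genes was not tested.

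**Figure D5:**
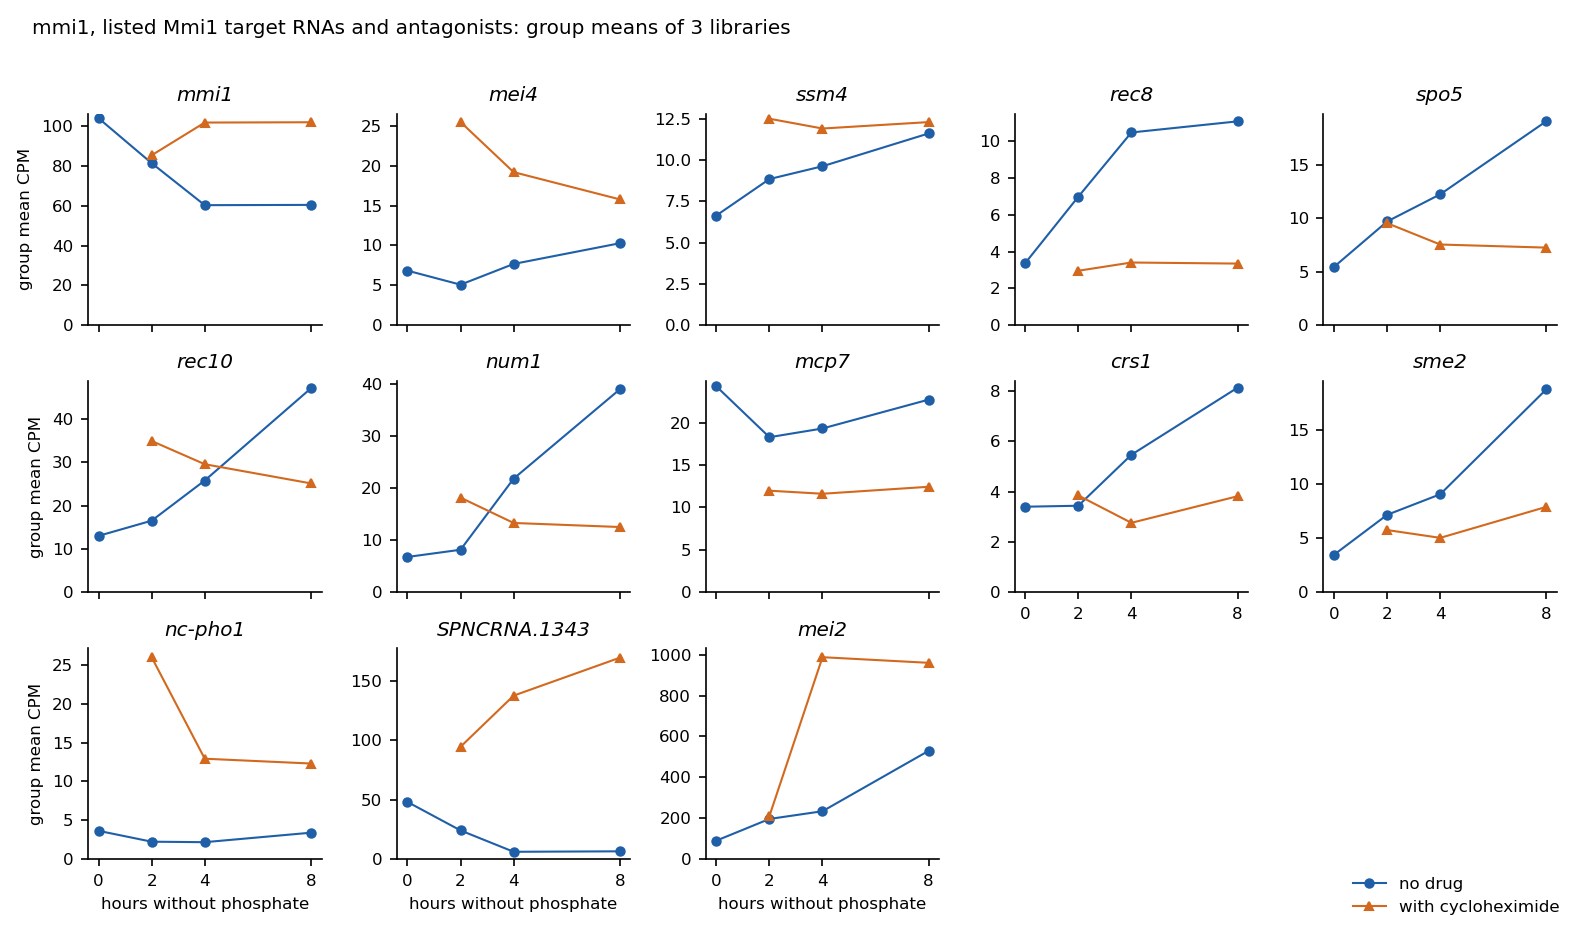
Group mean CPM (y axis from 0, own scale per gene, means of 3 libraries) of mmi1, the 11 listed Mmi1 target RNAs and mei2 against hours without phosphate, without drug (blue circles) and with cycloheximide (orange triangles). With cycloheximide at 8 h SPNCRNA.1343 averages 169.5 CPM and num1 12.5 CPM, against 6.53 and 38.9 CPM without it.

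The authors' deposited tables, which compare each starved group with 0 h, give log2 fold changes of the 10 genes that exceed those computed here by 0.02 to 0.06 in all 60 values. For cid14 the authors' deposited table lists -1.53 at 8 h, and for air1 with drug at 8 h -1.21. The sign differed from the values here in 3 of the 60 values of the authors' deposited tables, for rrp6 at 2 h and mmi1 at 4 and 8 h with drug, all close to 0.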

How the data were processed

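The authors deposited raw counts per gene for 21 libraries (7 groups of 3), with a table of log2 fold changes and adjusted p-values for each starved group against 0 h. The submitters' processing notes list the tools DESeq2, DESeq, HTSeq 0.10.0, SAMtools and HISAT2 2.1.0 and the genome build ASM294v2. Per the labels' protocols, hot acid phenol RNA went into TruSeq stranded mRNA libraries for paired-end sequencing. The log2 fold changes and p-values of the deposited tables were used only for symbols and for a comparison of values.

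Counts were tested with edgeR 4.0.16 (R 4.3.3), scaled by TMM after filterByExpr (6392 genes tested, 596 left out), in a quasi-likelihood fit of group over all 21 libraries with 14 comparisons. Ratios were log2 of counts + 0.5 within a library, tested by a two-sided exact permutation of drug labels within times. The fit was tested on simulated data. Alternatives used RLE factors, library size alone, other filters, DESeq2 1.42.0, subsets of groups, a replicate block, other fold thresholds and left-out libraries.

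The 10 members and the gene lists were chosen with earlier results of these data known. After the files were read, a PP2A subunit gene was dropped from the cytoplasmic decay list and a gene from the P-cell list. The rule for named genes took all members and, per list and comparison, the 2 highest and 2 lowest called, and for likeness the 2 closest, of which 1 is not reported here; other genes were named after their values were seen. Sequences, promoter motifs and gene lengths were not used here.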

Additional observations from a re-analysis of the deposited data

Results flagged for a closer look

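The effect of cycloheximide on dis3 differed between times: it was 0.006 ± 0.05 (log2, ± SE, n = 3 libraries per group) at 2 h and 1.04 ± 0.05 at 8 h, a difference of 1.04 ± 0.08 in the interaction of drug and time (edgeR's quasi-likelihood test, adjusted p = 2.5e-11). Of the 10 genes it was the only one past 2-fold there, beside 12.6% of all genes called higher and 32% called either way. The dis3 value was under 2-fold without replicate 3 of the 8 h libraries (0.983) or replicate 3 of the 2 h cycloheximide libraries (0.993). It was also under 2-fold with a minimum mean of 100 counts (0.984). Of the 10 genes 8 had an adjusted p below 0.05, as did 81.8% of all genes.

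The log2 ratio of rrp6 to dis3 moved one way with cycloheximide at 2 h and the other way at 8 h. All 3 libraries with drug lay above all 3 without it at 2 h (mean difference 0.477) and below them at 8 h (mean difference -0.187). The difference between these 2 times was not tested.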

How the results depend on the processing

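Calls close to 2-fold depended on settings. At 4 h with cycloheximide against 0 h the 1 lower member (air1) became 0 with RLE factors, DESeq2, library size alone or only the compared groups. All genes called lower there were 856, 856 and 791 of 6392, and 865 of 6253. At 8 h of starvation the 5 lower members became 2 with library size alone, beside 782 of 6392 genes. With only the compared groups they became 3, beside 919 of 6257. In the interaction the 1 member (dis3) became 0 with a minimum mean of 100 counts, beside 668 of 5669 genes called higher. Among values with an adjusted p below 0.05 in the main fit, the sign turned with library size alone for red1 at 4 h of starvation (0.10). With drug against 0 h it turned for upf1 at 2 h (0.0231) and 8 h (0.0843) and pab2 at 8 h (0.0849). Turns of values above that adjusted p are not listed. Of 140 log2 fold changes of members, 139 kept their side of the threshold, with no counted turn of sign, with RLE factors and with DESeq2. The number was 137 with only the compared groups and 130 with library size alone. A turn of sign was counted only for values with an adjusted p below 0.05 in the main fit or called under the other setting. Other values can have turned sign uncounted.

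No call in the other gene lists changed sign with RLE factors, library size alone or DESeq2. With no fold threshold the members called numbered 8, 10 and 10 at 2, 4 and 8 h against 0 h, 9, 8 and 8 with drug against 0 h, and 7, 8 and 10 for drug against no drug, beside 65.1%, 83.7% and 86.6%, 87.1%, 86.6% and 84.2%, and 85.7%, 89.5% and 89.2% of all genes. In the steps from 2 to 4 h and 4 to 8 h they numbered 10 and 7 without drug and 8 and 8 with drug, and 8 in the interaction, beside 75.8%, 70.1%, 65.3%, 67.2% and 81.8%. At 1.5-fold they numbered 3, 8 and 9 at 2, 4 and 8 h against 0 h, beside 16.5%, 47.3% and 54.8% of all genes. With drug against 0 h they numbered 2 at each time, beside 53.8%, 51.8% and 48.0%. For drug against no drug cid14 alone passed at 2 h and 7 members at 4 and 8 h, beside 50.4%, 60.3% and 59.0%. From 2 to 4 h without drug 2 passed, beside 30.7%, and in the interaction 5, beside 50.9%. In the other steps no member passed, beside 17.6% from 4 to 8 h without drug. With drug the shares were 15% from 2 to 4 h and 17.7% from 4 to 8 h.

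Leaving out 1 library gave 4 to 5 members at 8 h of starvation, 3 to 4 with drug against no drug at 4 h and 1 to 2 at 8 h (1 without replicate 3 of 8 h). It gave 1 to 2 at 8 h with drug against 0 h (2, with mtl1, without replicate 1 of 0 h or replicate 3 of 8 h with drug) and 0 to 1 in the interaction (0 without replicate 3 of 8 h or replicate 3 of 2 h with drug). Shares of all genes were not counted with 1 library left out. The ratio differences ranged from -0.670 to -0.616 for mtl1 to mtr4, 0.111 to 0.136 for rrp6 to dis3 and -1.87 to -1.85 for air1 to cid14. For rrp6 to dis3 the difference was -0.0516 without the 2 h libraries (exact permutation, adjusted p = 0.335) and 0.280 without those of 8 h (adjusted p = 0.0075). The cause was not tested beyond the values by time.

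Samples with the same replicate number did not clearly pair: 63 correlations of their deviations ran from -0.29 to 0.37 with a median of 0.042. For 126 pairs with different numbers they ran from -0.36 to 0.44 with a median of -0.019. Values above 0.1 numbered 11 of the 63 and 13 of the 126, and the difference was not tested. With replicate number as a block all 140 member calls were as without it, and the adjusted p of the ratios was 0.0117 for air1 to cid14, 0.0176 for mtl1 to mtr4 and 0.238 for rrp6 to dis3 (exact permutation within pairs). Each member had at least 532 counts in every library, and most values not called had an adjusted p below 0.05 but less than a 2-fold change.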
